A study of Mus musculus with 9 samples.

Results

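Intervals of KDM6A chromatin immunoprecipitation were examined at the Zfp zinc finger genes of Sv129 mouse embryonic stem cells. Members were the intervals of 5 lists that touched the span, plus 1 kb on each side, of a protein-coding gene whose RefSeq symbol is Zfp followed only by digits. Zfp42, Zfp281 and Zfp264, the sex chromosomes and chromosome 11 were left out. The rule took 341 of 19056 protein-coding genes and 1166 of 142062 intervals, and it used no measured value. The tested cells were grown with 0.12 µM MTX for 24 h, and the control cells are labelled WT. The labels put "folate deficiency" in the genotype field of the MTX cells and "neurodevelopment" in the treatment field of both groups. There were 2 KDM6A libraries of MTX cells, 2 of control cells, and 1 library made with IgG, a nonspecific antibody, from MTX cells. Whether 2 libraries of a group were made from different cultures is not stated, and their spread may be only technical. No IgG list of control cells was used. Input libraries of MTX and control cells are also in the series, and no list of their own was used here. Interval lists carry no expression values, so the labelled cell type was not checked against its marker genes.

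KDM6A, also called UTX, removes methyl groups from lysine 27 of histone H3. MTX, methotrexate, is an antifolate that blocks dihydrofolate reductase. Many Zfp genes encode C2H2 zinc finger proteins with a KRAB domain, which bind DNA through tandem fingers and recruit TRIM28 and the H3K9 methyltransferase SETDB1 to transposable elements. These genes arose by tandem duplication and lie in clusters of similar copies, and in embryonic stem cells their own 3′ exons are known to carry H3K9 methylation. Other Zfp genes are single developmental regulators, and a few, such as Zfp36, encode fingers of another kind that bind RNA.

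Examples of start sites that lay inside intervals of more than 1 KDM6A library are given here. They are RefSeq GRCm38.p6 windows from 250 bases before to 50 after the start, with capitals at CG dinucleotides. Zfp981 and Zfp985 are shown because their starts lay in an interval of all 5 libraries, IgG included. Zfp938 is shown because its start lay in both MTX lists and in control 1 but not in IgG. The start of Zfp763 lay in both MTX lists and in no other, and that of Zfp953 in both control lists and in no other.
Zfp981 (chr4:146514670-146514969, plus strand): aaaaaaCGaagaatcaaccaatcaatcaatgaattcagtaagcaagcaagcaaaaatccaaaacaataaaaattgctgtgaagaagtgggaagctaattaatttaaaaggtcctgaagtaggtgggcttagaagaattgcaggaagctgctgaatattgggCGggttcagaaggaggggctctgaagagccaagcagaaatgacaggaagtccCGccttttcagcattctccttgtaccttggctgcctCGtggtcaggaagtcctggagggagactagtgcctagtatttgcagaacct
Zfp985 (chr4:147553027-147553326, plus strand): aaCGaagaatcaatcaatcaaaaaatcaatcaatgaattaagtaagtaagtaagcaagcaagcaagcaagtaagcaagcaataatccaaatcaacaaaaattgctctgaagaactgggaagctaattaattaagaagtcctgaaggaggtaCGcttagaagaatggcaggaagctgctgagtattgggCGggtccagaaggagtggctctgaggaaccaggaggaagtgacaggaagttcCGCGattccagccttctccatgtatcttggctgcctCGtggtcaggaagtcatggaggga
Zfp938 (chr10:82241231-82241530, minus strand): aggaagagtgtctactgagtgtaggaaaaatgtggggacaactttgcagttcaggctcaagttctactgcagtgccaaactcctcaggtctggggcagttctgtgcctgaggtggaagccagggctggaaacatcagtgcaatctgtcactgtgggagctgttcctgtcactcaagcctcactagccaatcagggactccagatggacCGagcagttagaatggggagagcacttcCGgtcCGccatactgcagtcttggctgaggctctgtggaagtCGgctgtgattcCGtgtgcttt
Zfp763 (chr17:33033332-33033631, minus strand): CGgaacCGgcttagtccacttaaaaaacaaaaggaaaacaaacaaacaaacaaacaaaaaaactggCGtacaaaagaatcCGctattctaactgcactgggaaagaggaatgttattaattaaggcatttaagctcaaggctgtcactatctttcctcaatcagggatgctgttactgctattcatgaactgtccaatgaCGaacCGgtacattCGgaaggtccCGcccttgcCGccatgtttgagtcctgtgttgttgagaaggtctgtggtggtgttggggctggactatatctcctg
Zfp953 (chr13:67360523-67360822, minus strand): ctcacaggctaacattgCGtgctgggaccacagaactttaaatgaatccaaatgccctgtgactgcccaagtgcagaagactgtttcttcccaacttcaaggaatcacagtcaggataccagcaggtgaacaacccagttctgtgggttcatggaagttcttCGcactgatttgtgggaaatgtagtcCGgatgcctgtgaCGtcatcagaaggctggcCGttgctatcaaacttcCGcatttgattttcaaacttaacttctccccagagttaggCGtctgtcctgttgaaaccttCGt
The windows of Zfp981 and Zfp985, both in a cluster on chromosome 4, held 4 and 6 CG dinucleotides, and 235 of their 300 bases were identical in a global alignment with gaps allowed. Those of Zfp938, Zfp763 and Zfp953 held 5, 9 and 8. The median was 13.5 over the 342 windows found for 284 member genes, so all 5 lay below the median. Windows not printed here that lay in intervals of MTX 1 and control 1 were on both sides of it. Those of Zfp638, Zfp110 and Zfp566 held 17, 15 and 14, and those of Zfp936 and Zfp799 held 6 each.

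Zfp genes had an interval in 116 and 120 cases in MTX 1 and MTX 2, in 165 and 99 in control 1 and control 2, and in 107 in IgG. These were 34.0 and 35.2% of the Zfp genes in the MTX libraries, 48.4 and 29.0% in the control libraries and 31.4% in IgG. Among all protein-coding genes of the same chromosomes the shares were 28.9 and 26.8% in the MTX libraries, 41.8 and 21.9% in the control libraries and 24.0% in IgG. Every list therefore met Zfp genes somewhat more often than genes at large, and IgG did so as well. The MTX counts lay between the 2 control counts, with means of 118 ± 2.8 in MTX and 132 ± 46.7 in control cells (SD, n = 2 each), so the groups overlapped. The lists held 24177 and 28976 intervals in the MTX libraries, 44838 and 21228 in the control libraries and 22843 in IgG, so control 1 had both the longest list and the most Zfp genes. With the best 21228 intervals of each list, 101 and 78 Zfp genes had one in the MTX libraries, 82 and 99 in the control libraries and 99 in IgG. These were 29.6 and 22.9% of the family in the MTX libraries, 24.0 and 29.0% in the control libraries and 29.0% in IgG, beside 26.4 and 21.7%, 23.7 and 21.9%, and 22.7% of all genes in the same libraries. At that length control 1 was below MTX 1, control 2 and IgG, and MTX 2 and control 1 were close to the genes at large.

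Per base the family was also above the genes at large in all 5 lists. Intervals covered 7.19 and 7.38% of the Zfp gene windows in MTX 1 and MTX 2, 9.61 and 6.27% in control 1 and control 2 and 6.91% in IgG. Over all protein-coding genes the covered shares were 4.11 and 4.75% in the MTX libraries, 6.53 and 3.60% in the control libraries and 4.10% in IgG. The ratio of the 2 shares was 1.65 ± 0.14 in MTX and 1.61 ± 0.19 in control cells (SD, n = 2 each) and 1.69 in IgG. The difference between the KDM6A groups was smaller than the spread within either, and IgG lay within 1 SD of both. With only the better 50% of each list the ratio was 0.960 in MTX, 1.13 in control and 1.06 in IgG, so the MTX excess turned into a small deficit. Gene length differed little, with medians of 18301 bases for the Zfp genes and 17854.5 for all genes.

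**Figure D1:**
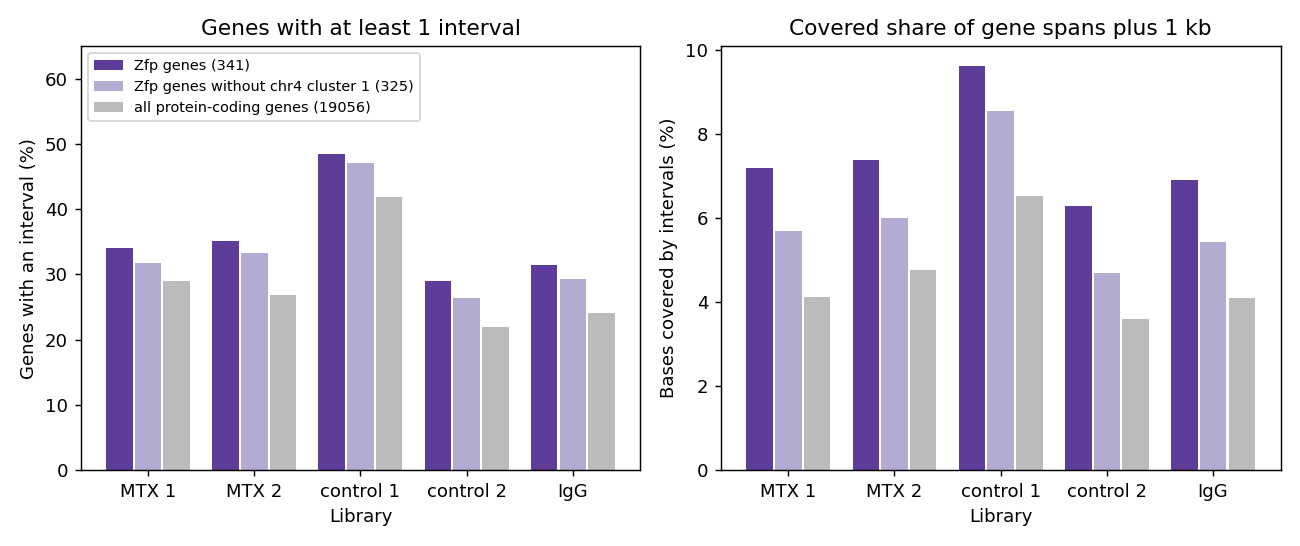
Share of genes with at least 1 interval (left, %) and share of bases covered by intervals (right, %) in each library, for the Zfp genes, the Zfp genes outside the large chromosome 4 cluster, and all protein-coding genes. Bars of the Zfp genes stand above those of all genes in each of the 5 libraries, IgG included, and the covered share of the Zfp genes is 7.19, 7.38, 9.61, 6.27 and 6.91%.

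By covered share the excess was concentrated in gene clusters. Runs of at least 3 Zfp genes with gaps of at most 1 Mb made 29 clusters that held 227 genes, and 114 genes were dispersed. The dispersed genes had a covered ratio of 1.09 and 1.04 in MTX 1 and MTX 2, 1.19 and 1.03 in control 1 and control 2 and 1.04 in IgG, which is close to the genes at large. The clusters other than the large one on chromosome 4 had ratios of 1.81 and 1.58 in the MTX libraries, 1.47 and 1.69 in the control libraries and 1.73 in IgG. The share of genes with an interval did not follow this order in the control libraries or IgG. At dispersed genes it was 28.9 and 32.5% in the MTX libraries, 53.5 and 31.6% in the control libraries and 30.7% in IgG. In those other clusters it was 33.2 and 33.6%, 43.6 and 23.7%, and 28.4% in the same libraries. Dispersed genes were longer, with a median of 25136.5 bases beside 15559.

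The large chromosome 4 cluster (chr4:145510759-147849126, mm10) stood furthest from the rest. It held 16 genes, Zfp990, Zfp980, Zfp987, Zfp600, Zfp992, Zfp981, Zfp993, Zfp978, Zfp991, Zfp988, Zfp982, Zfp985, Zfp979, Zfp534, Zfp984 and Zfp933. Intervals lay at 13 and 12 of them in MTX 1 and MTX 2, at 12 and 13 in control 1 and control 2 and at 12 in IgG. They numbered 48 and 51 in the MTX libraries, 50 and 52 in the control libraries and 44 in IgG. They covered 20.3 and 19.5% of the gene windows in the MTX libraries, 19.1 and 20.3% in the control libraries and 19.96% in IgG. The 5 libraries were thus nearly alike here, whatever the antibody or treatment. The same 12 genes had an interval in all 5 libraries. Zfp933 had one in MTX 1 and control 2 only, and Zfp987, Zfp991 and Zfp534 had none in any library.

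Reads in this cluster were many and folds were small. It gave 46.5 and 46.0% of the immunoprecipitated reads in Zfp intervals in MTX 1 and MTX 2, 37.0 and 52.6% in control 1 and control 2 and 48.9% in IgG, from 16 of the 341 genes. The deposited fold, the authors' ratio of immunoprecipitated to background reads, had a median of 1.07 and 1.03 in the MTX libraries, 1.13 and 1.10 in the control libraries and 1.06 in IgG. The background itself was dense. Its median was 54.1 and 60.8 reads per kb of interval in the MTX libraries, 58.9 and 53.2 in the control libraries and 54.4 in IgG. At the dispersed genes the background was 26.0 and 28.4 reads per kb in the MTX libraries, 25.6 and 25.8 in the control libraries and 25.3 in IgG. Start windows of these genes were also similar to each other, with 289 of 300 bases identical in such an alignment between Zfp979 and Zfp600 and 280 of 300 between Zfp534 and Zfp988. Reads from such copies can align to more than 1 place, their handling is not stated in the labels, and their part in these intervals was not tested.

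Zfp985 illustrates the cluster (chr4:147553277-147585201, plus strand). Intervals covered 81.7 and 85.9% of its window in MTX 1 and MTX 2, 86.4 and 83.5% in control 1 and control 2 and 83.1% in IgG. Its best fold was 1.30 and 3.25 in the MTX libraries, 1.36 and 1.26 in the control libraries and 1.07 in IgG, so 1 narrow MTX 2 interval stood above the others. Zfp981 was covered at 72.1 and 73.1% in the MTX libraries, 70.0 and 76.6% in the control libraries and 70.6% in IgG. Its best folds were 1.21 and 1.82 in the MTX libraries, 1.14 and 1.25 in the control libraries and 1.15 in IgG.

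Leaving out this cluster lowered, but did not end, the excess. Of the other 325 Zfp genes, 103 and 108 had an interval in the MTX libraries, 153 and 86 in the control libraries and 95 in IgG. Their covered ratio was 1.33 ± 0.09 in MTX and 1.30 ± 0.004 in control cells (SD, n = 2 each) and 1.33 in IgG. This choice was made after the values were seen.

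**Figure D2:**
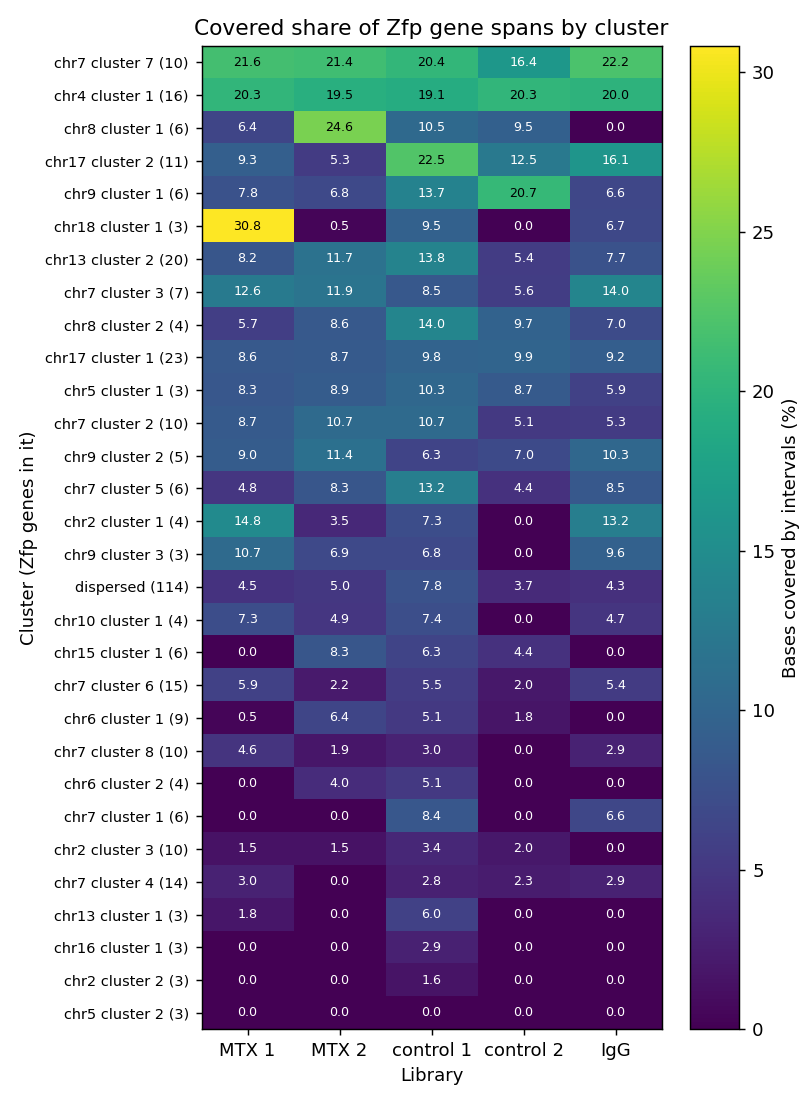
Covered share (%) of the Zfp gene windows in each cluster (rows, with the number of genes) and library (columns), ordered by the mean over the KDM6A libraries, with the dispersed genes as 1 row. The chromosome 4 cluster lies between 19.1 and 20.3% in all 5 libraries, while most smaller clusters change from library to library.

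Intervals at Zfp genes were weaker than those at genes at large. The median deposited fold was 1.27 in MTX 1 and in MTX 2, 1.41 and 1.26 in control 1 and control 2 and 1.29 in IgG. At other protein-coding genes it was 1.41 and 1.48 in the MTX libraries, 1.56 and 1.41 in the control libraries and 1.45 in IgG. The Zfp medians were lower in each of the 5 libraries. The authors' deposited adjusted p was under 0.05 for 62.1 and 63.9% of Zfp intervals in the MTX libraries, 74.4 and 67.0% in the control libraries and 69.2% in IgG. For intervals at all protein-coding genes the shares were 78.5 and 84.9% in the MTX libraries, 83.5 and 82.0% in the control libraries and 82.9% in IgG. Folds below 1 made up 15.4 and 16.0% of Zfp intervals in the MTX libraries, 7.87 and 13.4% in the control libraries and 12.6% in IgG. At all protein-coding genes they made up 6.17 and 3.61% in the MTX libraries, 3.97 and 4.73% in the control libraries and 5.27% in IgG. The chromosome 4 cluster carried much of this. Without it folds below 1 made up 9.04 and 8.93% of Zfp intervals in the MTX libraries, 5.56 and 7.09% in the control libraries and 5.84% in IgG, and the median fold was 1.32 and 1.33, 1.47 and 1.34, and 1.35 in the same libraries, still below other genes in each. The share with an adjusted p under 0.05 was then 68.7 and 73.2% in the MTX libraries, 79.1 and 76.4% in the control libraries and 79.2% in IgG. Zfp intervals did not hold fewer reads, with a median of 122.5 and 128 immunoprecipitated reads in the MTX libraries, 87 and 135 in the control libraries and 136.5 in IgG. At other protein-coding genes the median was 114 and 120 in the MTX libraries, 79 and 127 in the control libraries and 130 in IgG.

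Zfp intervals also met IgG intervals more often. The share that overlapped an IgG interval was 35.0% (exact 95% interval 28.7 to 41.8) in MTX 1 and 37.0% (30.6 to 43.8) in MTX 2. It was 29.5% (24.8 to 34.5) in control 1 and 44.7% (37.3 to 52.3) in control 2. Over all protein-coding genes it was 21.7 and 20.9% in the MTX libraries and 17.0 and 22.0% in the control libraries. These intervals cover counting error only. The chromosome 4 cluster made much of this, with 44 of 48 and 44 of 51 intervals in the MTX libraries and 45 of 50 and 45 of 52 in the control libraries. At dispersed Zfp genes the share was 14.9 and 16.9% in the MTX libraries and 17.3 and 20.3% in the control libraries, close to the genes at large. In the chromosome 4 cluster a KDM6A interval met an interval of another KDM6A library in 87.9% of cases on average over 12 ordered pairs, and an IgG interval in 88.6% over 4. Elsewhere in the family the averages were 27.7 and 22.0%, and at other protein-coding genes 22.5 and 20.1%.

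**Figure D3:**
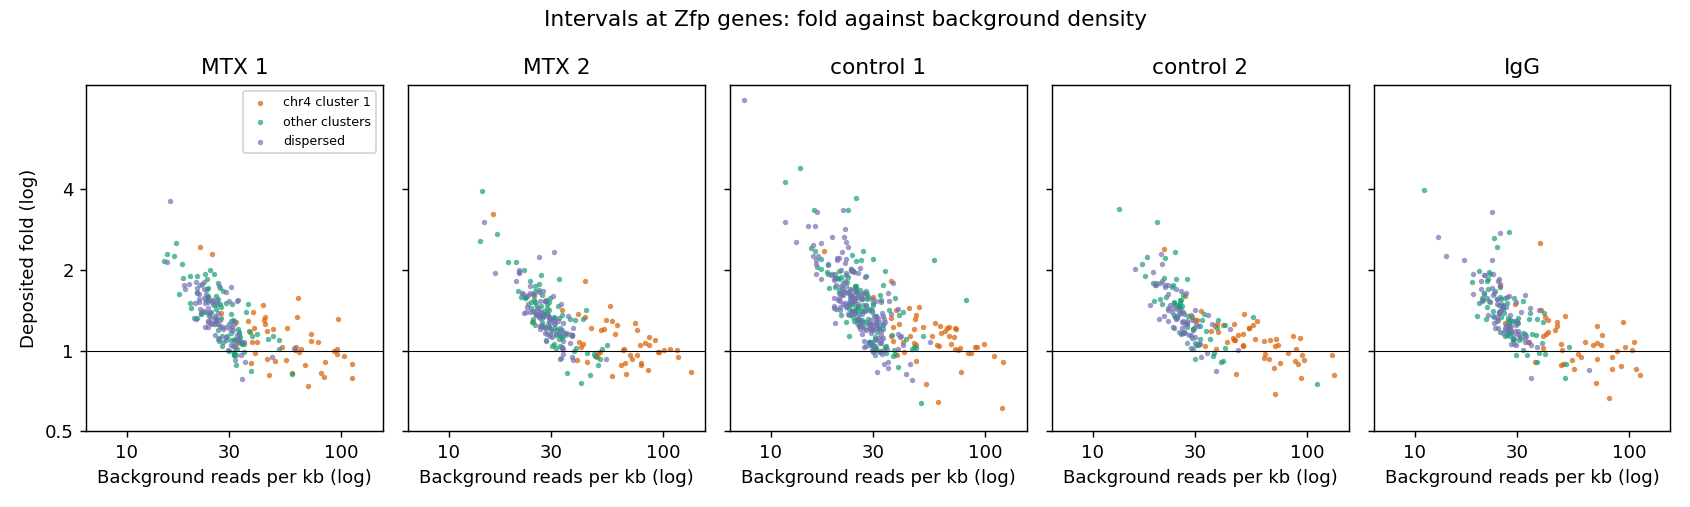
Deposited fold (log axis) against background reads per kb (log axis) for every interval at a Zfp gene, 1 panel per library, coloured by the chromosome 4 cluster, other clusters and dispersed genes. Points of the chromosome 4 cluster lie to the right, near a fold of 1, in all 5 panels, with median background of 53.2 to 60.8 reads per kb.

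Among the other clusters, the chromosome 7 group around Zfp936 (chr7:41633531-43618279, 10 genes) was covered most by the mean over the 4 KDM6A libraries, although in each of these libraries some other cluster was covered more. Intervals covered 21.6 and 21.4% of its windows in MTX 1 and MTX 2, 20.4 and 16.4% in control 1 and control 2 and 22.2% in IgG. Much of that was Zfp936 alone (chr7:43114166-43192109, plus strand), covered at 56.4 and 55.9% in the MTX libraries, 54.8 and 55.9% in the control libraries and 54.4% in IgG. Its best fold was 1.40 and 1.42 in the MTX libraries, 1.57 and 1.34 in the control libraries and 1.32 in IgG. Zfp936 thus shared the even coverage of the chromosome 4 cluster, while the background of its own cluster was less dense. Pooled over the intervals of its cluster, background was 38.9 and 42.1 reads per kb in the MTX libraries. It was 38.3 and 36.9 in the control libraries and 37.8 in IgG. The same measure in the chromosome 4 cluster was 65.4 and 72.6, 67.1 and 64.8, and 65.7. At dispersed Zfp genes it was 27.3 and 29.1, 27.1 and 26.4, and 26.5 in the same libraries. The chromosome 7 cluster of Zfp936 thus lay between them. Zfp819 in the same cluster had no interval in any library.

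The largest clusters had moderate coverage. The 23 genes of the first chromosome 17 cluster (chr17:21008941-23599755) had an interval in 11 and 12 cases in the MTX libraries, 14 and 11 in the control libraries and 11 in IgG. They were covered at 8.60 and 8.68% in the MTX libraries, 9.81 and 9.95% in the control libraries and 9.18% in IgG, a narrow range. In the 20 genes of the second chromosome 13 cluster (chr13:66670274-67827000), which includes Zfp708, the counts were 9 and 13 in the MTX libraries, 14 and 9 in the control libraries and 7 in IgG. Coverage there was 8.19 and 11.7% in the MTX libraries, 13.8 and 5.44% in the control libraries and 7.72% in IgG, so the controls lay on both sides of the MTX libraries.

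Coverage of both MTX libraries lay above that of both control libraries in 4 of the 29 clusters (13.8%) and below it in 5 (17.2%). Examples of each order follow. In the second chromosome 17 cluster (chr17:32765496-33631716, 11 genes, among them Zfp763, Zfp952 and Zfp799) coverage was 9.33 and 5.34% in the MTX libraries, 22.5 and 12.5% in the control libraries and 16.1% in IgG. Both MTX values lay below both control values, and IgG from MTX cells lay between the controls. In the chromosome 9 cluster of Zfp317, Zfp560, Zfp26, Zfp426, Zfp266 and Zfp846 (chr9:19622038-20605404), coverage was 7.77 and 6.82% in the MTX libraries, 13.7 and 20.7% in the control libraries and 6.55% in IgG. Intervals there numbered 4 and 5 in the MTX libraries, 9 and 10 in the control libraries and 4 in IgG. The opposite order was seen in the chromosome 7 cluster with Zfp110 and Zfp329 (chr7:12412549-12985717, 7 genes), at 12.6 and 11.9% in the MTX libraries, 8.51 and 5.62% in the control libraries and 14.0% in IgG. With 2 libraries against 2 an exact permutation test of a cluster cannot go below p = 0.333, and no other test was run on cluster coverage, so these values are a description.

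The chromosome 8 cluster of Zfp964 (chr8:69209018-69774911, 6 genes) had no IgG interval. Coverage there was 6.40 and 24.6% in the MTX libraries and 10.5 and 9.48% in the control libraries, with MTX 2 apart from the other 3. At the other end, the 10 genes of the third chromosome 2 cluster (chr2:174598682-178078425) were covered at 1.5% in both MTX libraries, 3.42 and 1.97% in the control libraries and 0% in IgG. Zfp12, Zfp316 and Zfp853 on chromosome 5 made the only cluster without an interval in any library, and 20 of the 29 clusters had one in IgG.

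All 4 KDM6A libraries had an interval at 40 Zfp genes, or 11.7%, beside 11.0% of all protein-coding genes, so the family was not above the background by this count. IgG had one too at 34 of the 40, so that all 5 libraries met at 9.97% of the family, beside 9.09% of all genes. Without the chromosome 4 cluster 28 genes remained in the class, 8.62% of 325. The 40 genes were long, with a median of 38726.5 bases against 13185 for the 101 Zfp genes that had no interval in any of the 5 libraries. Those 101 made 29.6% of the family, beside 41.7% of all genes. In 20 of the 40 genes the 4 libraries met in 1 merged region. In the other 20 they did not all meet in any 1 region.

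Ordered by the weakest library, Zfp407 led the 40. It encodes a large zinc finger protein that acts with PPARG in adipocytes. It had 8 and 5 intervals in MTX 1 and MTX 2, 8 and 7 in control 1 and control 2 and 3 in IgG. Its best folds were 2.15 and 2.24 in the MTX libraries, 3.36 and 2.02 in the control libraries and 1.93 in IgG, a mean of 2.19 ± 0.07 in MTX and 2.69 ± 0.95 in control cells (SD, n = 2 each). The groups overlapped. The gene is 381839 bases long, and intervals covered 8.08 and 4.06% of it in the MTX libraries, 4.90 and 8.13% in the control libraries and 3.18% in IgG.

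Zfp53, Zfp964 and Zfp950 were the members of the first 10 that had no IgG interval. At Zfp53 (chr17:21488934-21533201) the best folds were 1.71 and 1.91 in the MTX libraries and 1.90 and 1.78 in the control libraries. Its best MTX intervals lay together, at chr17:21508401-21510200 in MTX 1 and chr17:21508001-21510000 in MTX 2, with 78 over 49 and 92 over 54 immunoprecipitated over background reads. The best control intervals were elsewhere in the gene, at chr17:21493801-21495200 in control 1 and chr17:21512401-21515600 in control 2.

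At Zfp964 (chr8:69654463-69667132) the best folds were 1.51 and 1.47 in the MTX libraries and 1.80 and 1.61 in the control libraries, and both control values lay above both MTX values. The 4 libraries met in 1 region here (chr8:69655401-69667200). At Zfp950 (chr19:61053840-61140844) they were 1.43 and 1.61 in the MTX libraries and 1.98 and 2.29 in the control libraries, again with no overlap. An MTX 2 interval (chr19:61053401-61057800) and a control 2 interval (chr19:61053801-61056000) covered the same end of Zfp950.

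Zfp148, which encodes a transcription factor that binds GC-rich promoters, had its best fold in MTX 1. The values were 3.61 and 1.60 in the MTX libraries, 1.62 and 2.10 in the control libraries and 3.29 in IgG. The MTX 1 interval held 64 reads over 19, and that of IgG 73 over 23. The 2 MTX libraries differed more from each other than from the controls. Zfp609, which encodes a partner of the cohesin loader, had best folds of 1.76 and 1.49 in the MTX libraries, 2.65 and 1.44 in the control libraries and 1.62 in IgG.

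Zfp458, Zfp978, Zfp638 and Zfp936 completed the first 10. At Zfp458 IgG had the highest fold of any library, 3.96 from 84 reads over 22, beside 1.87 and 1.41 in the MTX libraries and 1.58 and 2.22 in the control libraries. Zfp638 has a human counterpart whose protein silences incoming retroviral DNA. It had 1.41 and 1.35 in the MTX libraries, 1.54 and 1.66 in the control libraries and 1.94 in IgG, so both control values were above both MTX values and IgG was above all 4. Zfp978 in the chromosome 4 cluster had 1.39 and 1.46 in the MTX libraries, 1.82 and 2.40 in the control libraries and 2.53 in IgG. At Zfp407, Zfp53, Zfp148, Zfp609, Zfp458 and Zfp936 the best folds of the groups overlapped. How often both control values lay above both MTX values was not counted over all genes. Folds at a gene come from its best interval, which lay at different places in different libraries, so they compare genes and not sites. A best fold is a maximum over a gene's intervals, and control 1 had the longest list.

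The comparison by treatment asked whether a gene had intervals in 1 group only. Both MTX libraries and neither control library had an interval at 8 Zfp genes, 2.35% of the family, beside 1.10% of all protein-coding genes. Both control libraries and neither MTX library had one at 12 Zfp genes, 3.52%, beside 1.97% of all genes. Both shares were above the background, and so was the share that followed the replicate number. Both KDM6A libraries numbered 1 and neither numbered 2 had an interval at 27 Zfp genes, 7.92%, beside 4.79% of all genes. The reverse held for 4, 1.17%, beside 0.829%. More Zfp genes thus split by number (27 and 4) than by treatment (8 and 12). Leaving out a library makes the condition easier to meet, so these counts could only stay or rise. Leaving out MTX 1, MTX 2, control 1 or control 2 in turn gave 27, 25, 15 and 17 MTX-only Zfp genes, or 7.92, 7.33, 4.40 and 4.99% of the family, beside 4.58, 5.90, 4.92 and 1.76% of all genes. The same omissions gave 18, 32, 18 and 52 control-only Zfp genes, or 5.28, 9.38, 5.28 and 15.2%, beside 4.04, 4.33, 4.29 and 14.3% of all genes. Without control 1 the MTX-only share of the family was below that of all genes, and without control 2 the control-only share was close to it.

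The MTX-only genes were Zfp660, Zfp937, Zfp763, Zfp873, Zfp974, Zfp641, Zfp54 and Zfp715. In Zfp763, Zfp873 and Zfp974 the 2 MTX libraries met in 1 region with no control interval in it. At 1 MTX-only gene an MTX interval lay in a merged region that also held a control interval outside the gene window. At Zfp763 (chr17:33016864-33033381) the MTX 1 interval chr17:33032401-33033600 held 61 reads over 44, a fold of 1.49, and the MTX 2 interval chr17:33033001-33035200 held 90 over 37, a fold of 2.73. Both overlapped the start window printed above, and neither overlapped IgG. Zfp660 had folds of 1.60 and 1.58 in MTX 1 and MTX 2 at 2 places, with 136 reads over 91 and 141 over 100. Zfp937 had 1.499 and 2.56, also at separate places. At Zfp715 the folds were 1.13 and 1.14, the deposited adjusted p was 0.103 and 0.0919, and IgG had 2 intervals. Zfp54 and Zfp873 also had an IgG interval.

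The control-only genes were led by Zfp958, Zfp947, Zfp850, Zfp456, Zfp959, Zfp648, Zfp60 and Zfp109, and Zfp664, Zfp260, Zfp202 and Zfp493 made up the 12. In Zfp958, Zfp947, Zfp850, Zfp456 and Zfp202 the 2 control libraries met in 1 region with no MTX interval in it. At 1 control-only gene a control interval lay in a merged region that also held an MTX interval outside the gene window. At Zfp958 (chr8:4613170-4632572) the best folds were 2.84 in control 1, with 86 reads over 40, and 1.76 in control 2, with 103 over 61. Zfp947 (chr17:22144355-22166172) had 1.53 and 3.02, from 96 reads over 83 and 58 over 20, at the same place (chr17:22146001-22147000 in control 2). Neither Zfp958 nor Zfp947 had an IgG interval. The control-only call at Zfp456 rested on an interval that began at chr13:67360401 in both control libraries. It covered the start window of its neighbour Zfp953 printed above, with 97 reads over 79 and a fold of 1.62 in control 1, and 114 over 89 and a fold of 1.33 in control 2. At Zfp60 the control 2 interval had a deposited adjusted p of 0.055, and at Zfp109 it was 0.0415.

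Read counts were compared where all 4 KDM6A libraries had an interval. Merging their intervals gave 2132 such regions, of which 42 lay at 22 Zfp genes, 31 of them in the chromosome 4 cluster. Regions of this kind touched 3.05% of all protein-coding genes. edgeR's quasi-likelihood test, with Benjamini-Hochberg adjustment over all 2132, called 0 regions higher and 0 lower in MTX cells at an adjusted p under 0.05 (0% of regions each way), and 73 (3.42%) had an unadjusted p under 0.05. Of the 42 Zfp regions 0 were called and 0 had an unadjusted p under 0.05. Sites with an interval in the MTX libraries only or the control libraries only did not enter this test. limma on log2 folds also called 0 of 2132, and DESeq2 called 8 higher and 8 lower (0.375% each), none at a Zfp gene. The median log2 change of the Zfp regions was -0.03, beside -0.03 for all regions. Their median absolute change was 0.13, beside 0.32 for all regions. Counts are sums over a library's own intervals in the region and so move with the width it called.

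The log2 fold over background, which does not grow with width, was low in the Zfp regions. Its median over the 31 regions of the chromosome 4 cluster was 0.01 in each MTX library and 0.09 and 0.07 in control 1 and control 2. Over the 11 regions elsewhere it was 0.19 and 0.31 in the MTX libraries and 0.30 and 0.14 in the control libraries. Over all 2132 regions it was 0.34 in each MTX library and 0.41 and 0.28 in the control libraries. The chromosome 4 regions were near 0 in both groups.

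The SD of the log2 fold between the 2 libraries of a group had a median of 0.11 in MTX and 0.10 in control cells over the 42 regions, beside 0.15 in MTX and 0.17 in control cells over all 2132. Both MTX values lay above both control values in 4 of the 42 (9.52%), beside 14.6% of all regions, and below them in 14 (33.3%), beside 16.1%. Of the 14, 11 lay in the chromosome 4 cluster, whose regions neighbour each other. The region of Zfp964 had log2 folds of 0.46 and 0.56 in the MTX libraries and 0.85 and 0.68 in the control libraries, while edgeR's log2 change of counts was 0.42 with an adjusted p of 0.998. The 2 measures thus differed in sign. The region shared by Zfp426 and Zfp266 (chr9:20491201-20501200) had -0.06 and 0.57 in the MTX libraries and 0.91 and 0.62 in the control libraries. That of Zfp148 (chr16:33432001-33448600) had 0.40 and 0.31 in the MTX libraries and 0.13 and 0.14 in the control libraries, with no overlap and an edgeR adjusted p of 0.998. That of Zfp292 (chr4:34829201-34839400) had 0.58 and 0.42 in the MTX libraries and 0.39 and -0.26 in the control libraries.

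**Figure D4:**
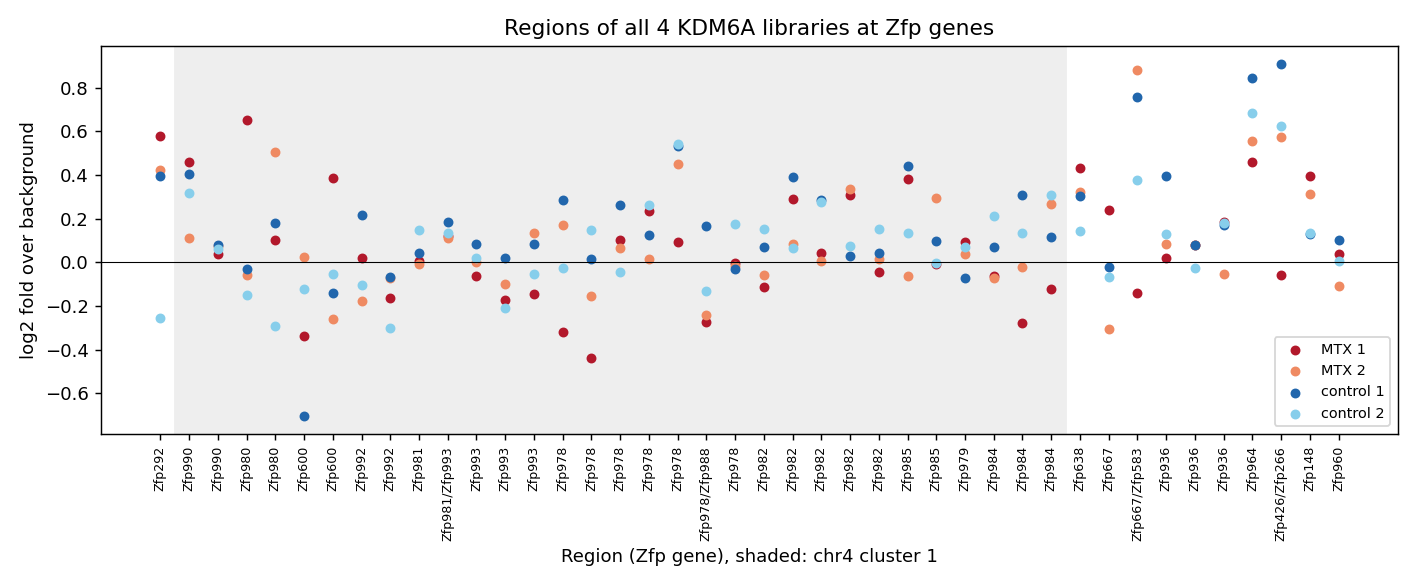
Log2 fold over background (y axis) of the 42 regions at Zfp genes that all 4 KDM6A libraries had, in genome order and labelled by gene, with 1 point per library. Regions of the chromosome 4 cluster (shaded, 31) scatter around 0 in MTX and control libraries alike.

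Start sites set the libraries apart by number rather than by treatment. Of 342 start windows of Zfp genes, 39 (11.4%) and 10 (2.92%) lay in an interval of MTX 1 and MTX 2, 49 (14.3%) and 8 (2.34%) in one of control 1 and control 2 and 31 (9.06%) in one of IgG. For other protein-coding genes the shares were 6.36 and 2.36% in the MTX libraries, 9.27 and 1.76% in the control libraries and 4.42% in IgG. MTX 1, control 1 and IgG were therefore high in both sets, and MTX 2 and control 2 were low. The IgG library is titled MTX1-IgG, so it too carries the number 1. Outside the chromosome 4 cluster, 33 and 5 of 327 Zfp windows lay in an interval in the MTX libraries, 46 and 3 in the control libraries and 26 in IgG.

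Along the gene the same split was seen. Outside the chromosome 4 cluster, intervals covered 7.29 and 1.97% of the 1 kb before the start in MTX 1 and MTX 2, 11.8 and 0.567% in control 1 and control 2 and 5.82% in IgG, over 272 Zfp genes of known strand. In the first of 10 equal bins of the gene the values were 5.69 and 1.62% in the MTX libraries, 8.25 and 0.174% in the control libraries and 5.51% in IgG. At other genes that bin was covered at 4.41 and 3.49% in the MTX libraries, 7.11 and 2.61% in the control libraries and 4.17% in IgG. MTX 2 and control 2 were thus lower at the start of these Zfp genes than at the start of other genes, and the remaining 3 were higher. With the chromosome 4 cluster included, this order did not hold. The first bin was then covered at 10.0 and 5.96% in the MTX libraries, 11.7 and 4.83% in the control libraries and 9.42% in IgG, above other genes in all 5. From the sixth bin to 1 kb past the end, coverage of Zfp genes was 6.04 and 8.26% in the MTX libraries, 10.2 and 7.27% in the control libraries and 7.33% in IgG. It was above that of the 5 bins and flank before, which were 5.61 and 6.04% in the MTX libraries, 8.47 and 3.76% in the control libraries and 5.37% in IgG. At other genes the earlier part had 4.33 and 4.70% in the MTX libraries, 6.98 and 3.44% in the control libraries and 4.35% in IgG. The later part there had 4.09 and 5.00% in the MTX libraries, 6.33 and 3.91% in the control libraries and 4.06% in IgG, higher than the earlier part in MTX 2 and control 2 and lower in the other 3.

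**Figure D5:**
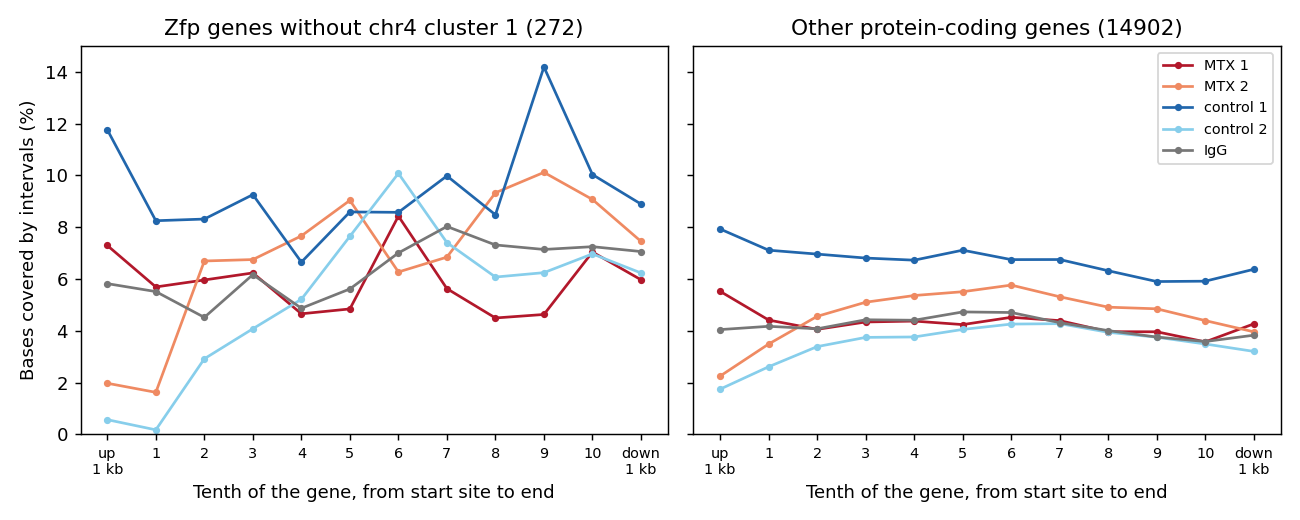
Covered share (%) in the 1 kb before the start, 10 equal bins of the gene and the 1 kb after its end, per library, for 272 Zfp genes outside the chromosome 4 cluster (left) and 14902 other protein-coding genes (right). MTX 2 and control 2 begin near 0 to 2% at Zfp starts while MTX 1, control 1 and IgG begin between 5.82 and 11.8%.

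Start windows inside an interval had a median of 9 and 5 CG dinucleotides in MTX 1 and MTX 2, 14 and 4.5 in control 1 and control 2 and 8 in IgG. The chromosome 4 cluster gave 5 of the 10 windows in MTX 2 and 5 of the 8 in control 2. Without it the medians were 10 and 9 in the MTX libraries, 14.5 and 8 in the control libraries and 10 in IgG. Only 5 windows in MTX 2 and 3 in control 2 then remained. At other protein-coding genes the medians were 19 and 3 in the MTX libraries, 18 and 3 in the control libraries and 14 in IgG. MTX 2 and control 2 were thus low at other genes too. Short motifs were counted on both strands of the windows. CCAAT was found in 47.4% of Zfp windows and 38.0% of those of other genes, and CCGGAAG, the core bound by ETS factors, in 23.1% and 11.7%. GGGCGG was found in 44.2% and 46.7%, and TATAAA in 7.02% and 12.9%. In the chromosome 4 cluster 11 of 15 windows held CCAAT, 9 held GGGCGG, 1 held TATAAA and 0 held CCGGAAG. These are descriptions of letters and not of bound sites.

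Of 20 listed Zfp genes with known roles, 3, Zfp423, Zfp143 and Zfp148, had an interval in all 4 KDM6A libraries, beside 11.0% of all genes. Of those that guard imprints, Zfp57 had no KDM6A interval and 1 IgG interval past its end (chr17:37010601-37014600, fold 1.45, 148 reads over 106), and Zfp445 had none in any library. Zfp568, which silences a placental Igf2 transcript, had an interval in MTX 2 (fold 1.14) and in IgG (1.30). Of those that bind retroviral sequences, Zfp809 had an interval in control 1 (2.10) and in IgG (1.21) and Zfp932 had 2 in control 1 alone (best fold 2.55). Zfp708 had folds of 1.99 and 1.42 in the MTX libraries, 1.70 in control 1, no interval in control 2 and 1.35 in IgG. Zfp961 had 0.973 in MTX 1, 1.66 in control 1 and 1.33 in IgG.

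Among the developmental regulators, Zfp423, which acts in adipocyte and cerebellar development, had 3 and 1 intervals in the MTX libraries, 8 and 2 in the control libraries and 2 in IgG. Its best folds were 1.70 and 0.931 in the MTX libraries, 2.55 and 1.40 in the control libraries and 1.62 in IgG. Zfp536, a repressor of neuronal differentiation, had none in MTX 1, 1 in MTX 2 with a fold of 1.20, and 5 and 1 in the control libraries with best folds of 2.25 and 1.82, and none in IgG. Zfp521 and Zfp462 had intervals in MTX 1 and control 1 but in neither library numbered 2. At Zfp462 IgG had 2 intervals, and 1 of the 2 MTX 1 intervals overlapped IgG. The best folds there were 1.70 in MTX 1, 2.44 in control 1 and 1.74 in IgG. Zfp217 had 1 in control 1 only (fold 1.20), and Zfp503, Zfp703 and Zfp335 had none in any library. Zfp143, which binds many promoters, had an interval in all 5 libraries, with best folds of 1.21 and 1.20 in the MTX libraries, 1.53 and 1.39 in the control libraries and 1.56 in IgG. Zfp296, a gene of pluripotent cells, had only an IgG interval (fold 1.41), and Zfp36, whose protein degrades AU-rich mRNAs, had 1 in control 1 with a fold of 1.01.

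IgG alone had an interval at 10 Zfp genes, 2.93% of the family, beside 2.53% of all protein-coding genes. Zfp977 led these with a fold of 1.94 (142 reads over 76), followed by Zfp952 at 1.68, Zfp213 at 1.57 and Zfp329 at 1.55. Their folds were within the range of the MTX-only and control-only genes.

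Other gene sets give a scale for the family. Zinc finger genes with Zbtb, Zscan or Zkscan symbols, 53 in all, had an interval in 15 and 15 cases in the MTX libraries, 26 and 7 in the control libraries and 10 in IgG, with coverage of 4.74 and 5.83% in the MTX libraries, 10.2 and 2.98% in the control libraries and 5.79% in IgG. Olfactory receptor genes, another family of tandem copies, were covered at 5.95 and 9.80% in the MTX libraries, 9.21 and 7.32% in the control libraries and 9.65% in IgG. There the median fold was 1.75 and 1.74 in the MTX libraries, 1.84 and 1.49 in the control libraries and 1.65 in IgG, above that of the Zfp genes in each library. Of 22 genes for KRAB cofactors and heterochromatin proteins, 10 and 6 had an interval in the MTX libraries, 9 and 7 in the control libraries and 10 in IgG. Kdm1a and Smarcad1 had one in all 5. Trim28, the corepressor of KRAB proteins, had one in control 1 and IgG only, and Setdb1 in MTX 2, both control libraries and IgG.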

How the data were processed

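KDM6A and IgG chromatin immunoprecipitation was sequenced in Sv129 cells, with groups and replicate numbers from the sample titles. Alignment used Bowtie2 and the mm10 genome, per the submitters' processing notes. No source used here names the interval caller. Each library has its own list, so intervals were called per library. The authors deposited whole-number counts of immunoprecipitated and background reads per interval, a fold, which is their ratio times 1 constant per list (1.04 to 1.32), and p-values with an adjusted p-value. Lists hold intervals with folds below 1 and were not filtered on it. Lists cover only reads in intervals, so full depths are unknown, and exact (Clopper-Pearson) intervals cover counting error only.

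All intervals were kept. Gene spans and start windows came from RefSeq GRCm38.p6 (the mm10 build), and strand was known for 284 of 341 Zfp genes. Overlap of at least 1 bp counted. KDM6A intervals that touched were merged into 82424 regions. Counts in the 2132 regions of all 4 libraries were tested with edgeR 4.0.16 (TMM, filterByExpr, quasi-likelihood), with limma 3.58.1 on log2 of the fold (pseudocount 0.5) and DESeq2 1.42.0 as alternatives, in R 4.3.3, after a test on simulated data.

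Named genes are the first 10 in all 4 KDM6A libraries, up to 8 MTX-only, 8 control-only and 4 IgG-only genes, ordered by their weakest best fold, and a list of known roles. Others were named after their values were seen. Members and lists were chosen with earlier results of these data known. Protein domains were planned and are not analysed here. Alternatives varied the threshold, list length, window, overlap, IgG overlap and libraries.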

Additional observations from a re-analysis of the deposited data

How the results depend on the processing

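Of 122 alternative values, 83 stayed within the spread or within 1.5 times the reported value and 39 moved. IgG is 1 library and has no spread, so its covered ratio was judged by the larger SD of the 2 KDM6A groups. With the better 50% of each list, Zfp genes with an interval numbered 58 and 46 in the MTX libraries, 84 and 51 in the control libraries and 41 in IgG, with 4 genes in all 4 KDM6A libraries and 4 MTX-only. The covered ratio was then 0.960 in MTX, 1.13 in control and 1.06 in IgG, and the share overlapping IgG was 7.29% in MTX and 8.93% in control. With lists of 21228 intervals, MTX 2 and control 1 had 78 and 82 genes, 15 genes were in all 4, the ratio was 1.23 in MTX and 1.39 in control, and the IgG share 20.8% and 25.2%. With a deposited adjusted p under 0.05, 17 genes were in all 4, the ratio was 1.24, 1.32 and 1.37 in MTX, control and IgG, and the IgG share 19.8% in MTX and 20.3% in control. Without intervals that overlap IgG, 22 genes were in all 4 and the ratio was 1.22 in MTX and 1.09 in control. Without the large chromosome 4 cluster, chosen after seeing the data, the ratio was 1.33, 1.30 and 1.33 in MTX, control and IgG, and the IgG share 20.3% in MTX and 23.6% in control. The causes were not tested. Leaving out 1 KDM6A library at a time gave 46 to 60 genes in all the others, 15 to 27 MTX-only genes and 18 to 52 control-only genes. Such counts can only stay or rise when a library is left out, and some of the 39 moved values are of this kind. edgeR called 0 Zfp regions in every setting run. Over all regions it called 3 higher without control 1 and 1 higher without control 2, where the lone control library is assumed to vary like the MTX libraries. With the replicate number as a block edgeR called 0 of the 42 Zfp regions and 0 of 2132, with 113 at an unadjusted p under 0.05. By their labels, same-numbered libraries share only a number. Their deviations correlated at r = 0.1293 over the 2 pairs, across the 2132 regions that all 4 libraries had. The split by number at start windows was seen over all intervals and not only in these regions. The midpoint rule gives no covered share. The lists hold only reads in intervals, so a gene without an interval may still have had reads.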

Other observations

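The genes for KRAB cofactors and heterochromatin proteins were met unevenly. Ehmt1, an H3K9 methyltransferase gene, had an interval in both MTX libraries, control 1 and IgG, and Atf7ip, whose protein stabilizes SETDB1, in the same 4 libraries. Dnmt3b and Dnmt3l, which act in DNA methylation, had one in MTX 1 only, and Suv39h2 in MTX 2 only. Cbx3, Dnmt3a, Uhrf1, Mphosph8, Chd4, Hdac1, Ehmt2 and Daxx had none in any library.

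In the second chromosome 8 cluster (chr8:71882068-71970333, 4 genes) intervals covered 5.68 and 8.63% in the MTX libraries, 14.0 and 9.69% in the control libraries and 7.02% in IgG. The chromosome 15 cluster (chr15:75615200-76925693, 6 genes) was covered at 0 and 8.25% in the MTX libraries, 6.27 and 4.36% in the control libraries and 0% in IgG. In the fourth chromosome 7 cluster (chr7:24081877-25227876), 14 genes were covered at 3.00 and 0% in the MTX libraries, 2.80 and 2.30% in the control libraries and 2.90% in IgG.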
